A study of Homo sapiens with 17 samples.

Results

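The data described here are 1 RNA sequencing library of Cal27 labelled as an NSD1 knockout and 1 library of Cal27 itself, both untreated. Genes were kept where either library held at least 100 counts, which left 11111 of the 34496 genes in the deposited table (22460 were above 0 in some library), and each was described by its log2 difference in counts per 1e6 reads (CPM), labelled knockout minus Cal27. Cal27 is a line of squamous cell carcinoma of the tongue. The study also holds 2 libraries each of Cal27 with DMSO, of the labelled knockout with DMSO and of the labelled knockout with EPZ-6438 (tazemetostat, an inhibitor of the histone methyltransferase EZH2), and 1 untreated library each of 2 further head and neck lines, SKN3 and BICR78. The labels give no dose, no time and no number of clones, and they do not say how the knockout was made or whether the untreated and the DMSO libraries came from the same culture.

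NSD1 is a methyltransferase that acts on histone H3 at lysine 36, mostly between genes, and the mark it leaves is one that hinders PRC2, the complex around EZH2, from methylating lysine 27 of the same histone and silencing genes there. Squamous epithelium is built from basal cells that express the keratins KRT5 and KRT14 and the transcription factor TP63, and it matures through keratins such as KRT13 and KRT4 and through small proline-rich proteins that are cross-linked beneath the cell membrane. Interferon-stimulated genes answer to STAT and IRF transcription factors, whereas cytokines such as IL6, TNF and the CXCL chemokines answer to NF-kappaB.

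With 1 library per group the untreated pair has no replicate check and no p-value. Intervals on it are exact 95% intervals from the counts and cover counting error only. The words rose and fell are kept for the DMSO libraries, where 2 libraries per group allow a test by edgeR's quasi-likelihood method, with a threshold of 0.05 on the p-value after Benjamini-Hochberg adjustment. No label says that replicates came from separate cultures, so the spread behind those p-values is that of these libraries alone and may be technical. The untreated libraries of Cal27 and of the labelled knockout held 21.74 and 21.2 counts in units of 1e6, and the DMSO and EPZ-6438 libraries 11.75 to 15.51. Mitochondrially encoded genes took 7.48% and 5.94% of the counts of the untreated pair, and 5.44% to 7.25% in the DMSO and EPZ-6438 libraries.

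NSD1 itself stood at 149.3 CPM in untreated Cal27 and at 203.3 CPM in the untreated labelled knockout, a log2 difference of 0.45. With DMSO it stood at 113.4 and 114.2 CPM in Cal27 and at 165.4 and 164.2 CPM in the labelled knockout, and it rose by 0.53 on the log2 scale (SE 0.042, adjusted p 4.2e-08). The transcript was therefore more abundant in every library labelled knockout than in the Cal27 libraries of the same set. A count of reads over the whole gene does not show a small deletion or insertion, so these values do not check the label, and "labelled knockout" is used throughout.

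Of the 11111 genes, 501 were at least 2-fold higher in the labelled knockout (4.51%) and 719 at least 2-fold lower (6.47%). These shares over all genes kept stand beside every list count of the pair given below. The median difference was 0.001 and the range from the 5th to the 95th percentile ran from -1.179 to 0.949. With scaling by library size alone, which moved the median of all genes by 0.104, 621 were higher and 614 lower. Large differences lay mostly on the lower side: 136 genes were at least 4-fold higher and 279 at least 4-fold lower, and 3 were at least 64-fold higher against 29 lower. Genes near the 2-fold line are set by the line itself. ADGRB2 (1.00203) and TMEM40 (1.00566) lay just inside it on the higher side and CEMIP2 (0.99928) just outside, while EVL (-1.00041) lay just inside on the lower side and NDUFS1 (-0.99971) just outside. A gene that reached 100 counts in only 1 library was kept through the library where its count was higher, so counts over the genes kept are descriptions and lend support to nothing. At the 100-count line, UCN2 was kept (4.76 and 4.36 CPM in Cal27 and the labelled knockout) and CRYL1 was not (4.71 and 3.59 CPM).

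**Figure D1:**
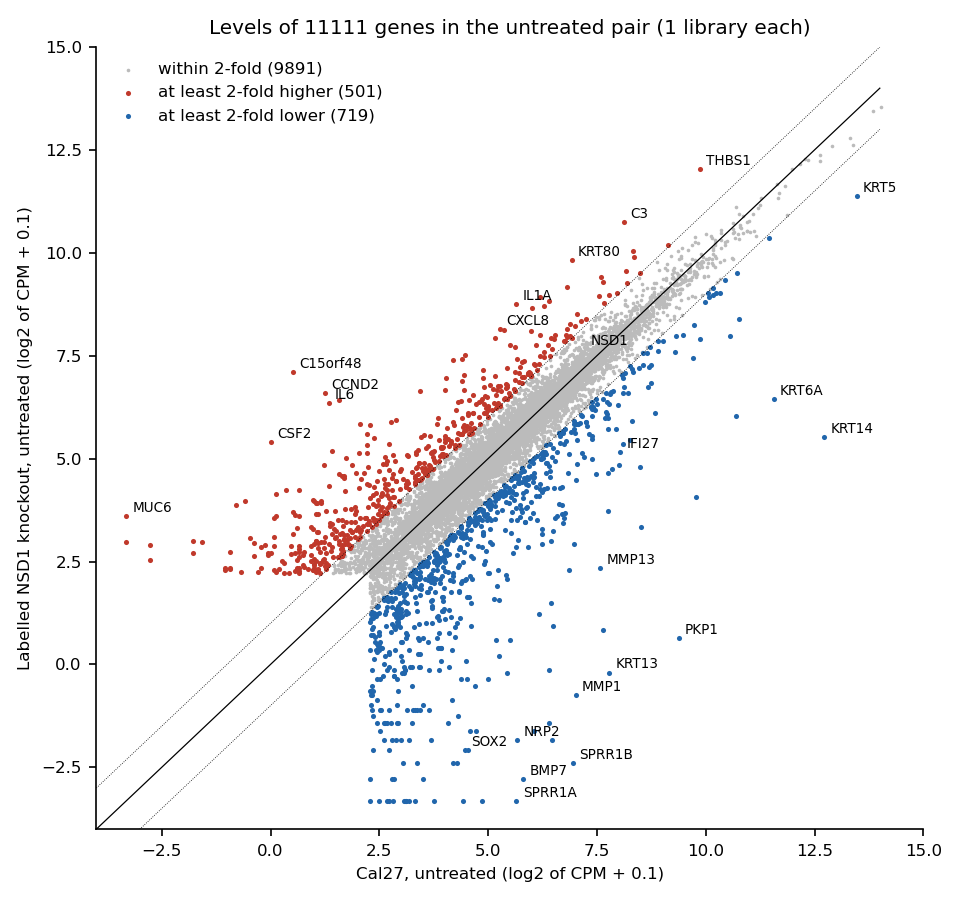
Levels of the 11111 genes in untreated Cal27 (horizontal axis) and the untreated labelled knockout (vertical axis), as log2 of CPM plus 0.1; each point is 1 gene, the solid line marks equal levels, the dotted lines a 2-fold difference, and selected genes are named. The 719 lower genes reach much farther from the line of equality than the 501 higher genes, with KRT14, PKP1, KRT13 and SPRR1B at the far end.

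The squamous programme held the largest differences. The small proline-rich protein SPRR1B, a cross-linked component of the cornified envelope, stood at 123.2 CPM in Cal27 and at 0.091 CPM (2 counts) in the labelled knockout, and the interval of its log2 ratio of counts ran from -13.453 to -8.552. Its neighbour SPRR1A, at 50.1 CPM in Cal27, had no count in the labelled knockout and was at least 368-fold lower, taking 3 counts as the floor. The plakophilin PKP1, which anchors desmosomes to keratin filaments, stood at 667.2 CPM and 1.45 CPM, a log2 difference of -8.73 (interval of the ratio of counts -9.39 to -8.35). The keratins of stratified mucosa KRT4 (87.8 and 0.182 CPM) and KRT13 (219.6 and 0.772 CPM) had log2 differences of -8.17 and -7.94. Of 42 listed genes of keratinocyte differentiation in the table, 28 were kept, of which 19 were at least 2-fold lower and 2 at least 2-fold higher, with a median of -2.90 against 0.001 over all genes kept. Those 2 were KRT80 (121.2 and 912.1 CPM) and ANXA9 (2.95). With DMSO, 15 of 21 tested fell and 4 rose, with a median of -1.574. Over all tested genes kept, 20.2% fell and 18.7% rose. For the 28 genes, the untreated level lay above the DMSO level by a median log2 of 1.434 in Cal27 and 0.132 in the labelled knockout. In Cal27 with DMSO (means of 2), SPRR1B stood at 7.77 CPM, KRT13 at 6.59, KRT4 at 0.444 and PKP1 at 102.3. By the medians, much of the size of the list's differences thus came from the high untreated Cal27 library. PKP1 and SPRR1B were also lower in the untreated labelled knockout (1.45 and 0.091 CPM) than in its DMSO libraries (12.8 and 0.56 CPM, means of 2).

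Among basal keratinocyte genes, KRT14 stood at 6783 CPM in untreated Cal27 and at 45.6 CPM in the labelled knockout, a log2 difference of -7.21. In the DMSO set it stood at 1330 and 1316 CPM in Cal27 and at 186.7 and 197.2 CPM in the labelled knockout, where it fell by 2.79 on the log2 scale (SE 0.030, adjusted p 1.9e-19). The 2 sets agree in direction, but the untreated Cal27 library lay above every Cal27 DMSO library and the untreated labelled knockout below both of its DMSO libraries. KRT5, the most abundant keratin here, went from 11310 to 2658 CPM (-2.09), KRT6A from 3024 to 87.1 CPM (-5.12) and KRT15 from 1664 to 65.8 CPM (-4.66). The transcription factor SOX2 stood at 22.03 CPM and at 0.136 CPM (3 counts), with an interval of the log2 ratio of counts from -9.621 to -5.782, and with DMSO it fell by 2.98 on the log2 scale. TP63, the master regulator of basal squamous cells, was reduced less, from 708.1 to 257.1 CPM (-1.46). Of 27 basal genes kept, 16 were at least 2-fold lower and none at least 2-fold higher, with a median of -1.14. The 11 others, within 2-fold, included the laminin chains LAMB3 (0.68) and LAMA3 (0.08) and the receptor EGFR (-0.37).

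Cell adhesion genes followed the keratins in part. Desmoplakin, DSP, which links desmosomes to keratins, stood at 1499 and 250.8 CPM (-2.58), the desmosomal cadherin DSG3 at 166.2 and 31.6 CPM (-2.39), and the integrin ITGA6, which holds basal cells to the basement membrane, at 831.7 and 174.4 CPM (-2.25). ITGA6 lies on the distal long arm of chromosome 2, where genes were lower as a block, as described below. DSG2, the desmosomal cadherin of simple epithelia, stood at 182.6 and 202 CPM (0.15). Of 16 genes kept from a list of simple epithelial keratins and glandular genes, 4 were at least 2-fold higher, 2 at least 2-fold lower and 10 within 2-fold, with a median of 0.476. The lower 2 were the adhesion molecules CEACAM5 (8.95 CPM) and CEACAM6 (8.47 CPM), which had no count in the labelled knockout and were at least 65.7-fold and 62.2-fold lower. In Cal27 with DMSO they stood at only 0.443 and 0.406 CPM (means of 2). The higher 4 were the mucin MUC20 (1.34) and 3 keratins: KRT7 (5.14 and 44.9 CPM), KRT8 (327.9 and 953.1 CPM) and KRT18 (289.1 and 755 CPM), with log2 differences of 3.10, 1.54 and 1.38. The keratins KRT7, KRT8 and KRT18 also rose with DMSO, by 1.01, 0.25 and 0.42. The general epithelial genes EPCAM (0.47), GRHL2 (-0.34) and ESRP1 (-0.15) lay within 2-fold, and CDH1 (E-cadherin) was higher by 1.08, from 293.4 to 619.4 CPM.

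Genes of these families lie in clusters on the chromosomes, and the clusters were looked up after the values were seen (coordinates from RefSeq, GRCh38.p14). Of 20 genes kept in the epidermal differentiation complex (chr1:151982915-153632039), from S100A10 to S100A14, 16 were at least 2-fold lower and none at least 2-fold higher, with a median of -3.04. The other 4, S100A11, S100A6, S100A4 and S100A16, lay between -0.88 and -0.67. In the type I keratin cluster on chromosome 17, 5 of 7 were lower, and KRT10 and TMEM99 lay within 2-fold. The type II keratin cluster (chr12:52168996-52952906) split by position. KRT80, KRT7, KRT86 and KRT81 at its start and KRT8 and KRT18 at its end were higher, and the 5 between them, KRT6B, KRT6A, KRT5, KRT1 and KRT4, were lower. KRT81 and KRT86, and likewise KRT6A and KRT6B, are close copies, so the split of reads between them is uncertain. Of 7 kallikreins kept on chromosome 19, proteases that shed the outer skin, 5 were lower. In that cluster KLK5 lay at -0.70 in the pair and fell by 3.60 with DMSO, so its larger difference was with DMSO, unlike those of KRT14 and KRT6A.

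Antimicrobial and S100 genes divided. PI3 (elafin, a protease inhibitor of inflamed epithelium) stood at 89.3 and 1.82 CPM (-5.53), S100A7 at 22.5 and 0.953 CPM (-4.39), and the calprotectin subunits S100A8 (-3.25) and S100A9 (-2.82) were lower by like amounts. S100A8 and S100A9 fell with DMSO by 3.37 and 2.80. LCN2 (lipocalin 2, which captures bacterial siderophores) was higher, from 73.6 to 482.9 CPM (2.71), and the ribonuclease RNASE7 by 1.89. Of 16 genes kept from this list, 9 were lower and 2 higher, with a median of -1.38.

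**Figure D2:**
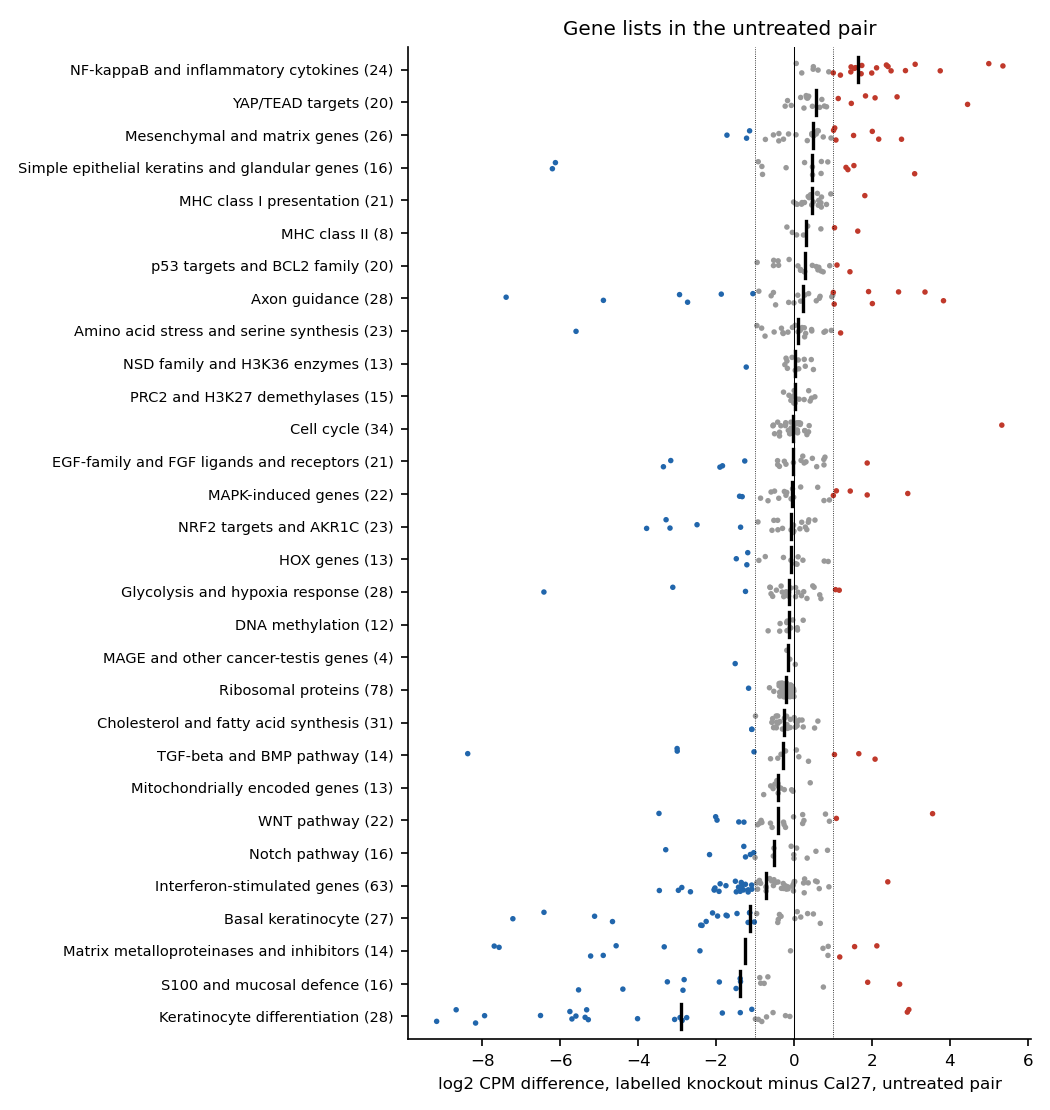
Log2 CPM difference in the untreated pair (horizontal axis) for the genes kept from each of 30 gene lists (rows, with the number kept in brackets); each point is 1 gene, red at least 2-fold higher, blue at least 2-fold lower, grey within 2-fold, and the black bar is the list's median. The NF-kappaB list lies at the top with a median of 1.653, and the keratinocyte differentiation list at the bottom with -2.896.

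Inflammatory cytokines formed the clearest group on the higher side. IL6 stood at 2.43 CPM in untreated Cal27 (interval 1.81 to 3.19) and at 81.5 CPM in the untreated labelled knockout (77.8 to 85.4), a log2 difference of 5.0007. With DMSO it stood at 11.2 and 10.8 CPM in Cal27 and at 13.2 and 16.6 CPM in the labelled knockout, where it rose by 0.43 (SE 0.12, adjusted p 0.011). The labelled knockout was higher in both sets, by far less with DMSO. CSF2, the growth factor GM-CSF, stood at 0.904 and 42.2 CPM (5.36), TNF at 2.57 and 36.2 CPM (3.75), IL1A at 49.8 and 431.4 CPM (3.11) and the neutrophil chemokine CXCL8 at 38.8 and 283.1 CPM (2.86). Of 24 listed genes kept, 18 were at least 2-fold higher and none lower, with a median of 1.65. Of the same 24 with DMSO, 17 rose and 4 fell (CCL20, TNFAIP2, BIRC3 and CCL2), with a median of 0.298, where 18.7% of the tested genes kept rose and 20.2% fell. The summed level of the list was 1978 CPM in untreated Cal27, below the 5327 to 6619 CPM of all DMSO libraries of both lines, and 5589 CPM in the untreated labelled knockout.

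The promoters of these genes and of the interferon-stimulated genes below are shown because the 2 groups lay on opposite sides of 0. Sequences are the 250 bases before the RefSeq start of each gene (GRCh38.p14), 5′ to 3′ on the strand of the gene. Capitals mark matches to an NF-kappaB motif (GGGA, any base, then TTTCC) in IL6 and CXCL1 and to an interferon-stimulated response element (ISRE, GAAA, any 2 bases, then GAAA) in IFI6 and IFI27, searched on both strands with overlapping matches allowed.
IL6 (chr7:22726950-22727199, plus strand): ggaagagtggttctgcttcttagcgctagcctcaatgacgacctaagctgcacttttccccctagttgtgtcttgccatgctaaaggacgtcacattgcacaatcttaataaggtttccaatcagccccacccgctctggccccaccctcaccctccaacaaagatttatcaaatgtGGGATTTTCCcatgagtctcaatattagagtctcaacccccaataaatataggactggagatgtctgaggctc
CXCL1 (chr4:73869143-73869392, plus strand): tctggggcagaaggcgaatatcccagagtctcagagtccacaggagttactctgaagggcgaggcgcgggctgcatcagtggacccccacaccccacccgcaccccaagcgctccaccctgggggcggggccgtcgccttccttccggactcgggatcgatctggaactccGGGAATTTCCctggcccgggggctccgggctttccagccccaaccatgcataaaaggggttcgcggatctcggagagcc
IFI6 (chr1:27672193-27672442, minus strand): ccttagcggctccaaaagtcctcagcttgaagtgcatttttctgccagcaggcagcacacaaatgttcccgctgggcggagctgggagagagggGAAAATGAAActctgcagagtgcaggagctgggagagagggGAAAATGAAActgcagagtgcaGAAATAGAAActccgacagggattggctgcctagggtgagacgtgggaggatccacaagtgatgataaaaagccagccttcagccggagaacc
IFI27 (chr14:94110486-94110735, plus strand): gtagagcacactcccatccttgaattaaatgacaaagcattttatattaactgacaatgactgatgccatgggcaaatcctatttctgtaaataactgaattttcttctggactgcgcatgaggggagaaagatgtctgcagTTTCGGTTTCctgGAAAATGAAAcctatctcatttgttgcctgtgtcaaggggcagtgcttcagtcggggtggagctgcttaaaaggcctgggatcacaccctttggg
The matches begin 73 bases before the start in IL6 and 79 in CXCL1, at -156, -115 and -93 in IFI6 and at -108 and -95 in IFI27. In windows of 300 bases (250 before and 50 after the start), the NF-kappaB motif was in 8 of 21 genes kept from the NF-kappaB list that had a window (38.1%), in 3 of 48 from the interferon list (6.25%) and in 0.579% of all 27305 windows. The ISRE motif was in 32 of 48 genes of the interferon list (66.7%), in none of the 21 and in 3.65% of all windows. Both lists name genes by their answer to these factors, so these shares describe the lists and not the untreated pair. Of genes at least 2-fold higher, 8 of 359 with a window held the NF-kappaB motif, so most higher genes had no such match in this window. A match is a run of letters, not a measured binding site. CXCL8, TNF and CSF2 had no match in this window.

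CXCL1 stood at 84.9 and 453.1 CPM (2.42), and its neighbours CXCL2, CXCL3 and CXCL8 were higher too, so that 4 of 4 genes kept of this chemokine cluster on chromosome 4 were at least 2-fold higher. In the IL-1 cluster on chromosome 2, IL1A and IL1B (111.9 and 580.1 CPM) were higher, whereas IL1RN, which encodes the antagonist of the IL-1 receptor, lay at -0.84 and fell by 2.04 with DMSO. Acute-phase and complement genes stood with the cytokines. C3, the central complement protein, went from 280.1 to 1713 CPM (2.61), CFB from 35.4 to 244.3 CPM (2.78) and SAA1 from 18.3 to 169.7 CPM (3.20). With DMSO, CFB and SAA1 fell, by 0.31 and 0.13. C15orf48, a small mitochondrial protein gene induced in inflammation, stood at 1.33 and 137 CPM (6.56). The cytokine IL11 was higher by 4.62, from 0.476 to 14.6 CPM.

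Interferon-stimulated genes were lower in the same library. IFI6, whose product lies in mitochondria and limits cell death, stood at 87.3 and 7.85 CPM (-3.45), IFI44L at 17.5 and 2.13 CPM (-2.97), and IFI27 at 263.1 and 35.7 CPM (-2.88). With DMSO IFI27 stood at 584.9 and 563.5 CPM in Cal27 and at 133.9 and 125.9 CPM in the labelled knockout, and it fell by 2.15 (SE 0.038, adjusted p 7.2e-17). IRF9, a DNA-binding subunit of the factor that drives these genes, stood at 51.3 and 8.03 CPM (-2.66). Of 63 genes kept, 24 were at least 2-fold lower and 1 higher, with a median of -0.71. With DMSO 54 of the 63 fell and 3 rose, with a median of -0.522, where 20.2% of the tested genes kept fell and 18.7% rose. The higher gene was the chemokine CXCL11 (4.14 and 22.5 CPM, 2.41), which rose with DMSO by 0.47. The guanylate-binding proteins GBP1 to GBP4 lay within 2-fold, between -0.41 and 0.60, and IRF1 stood at 131.9 and 156.6 CPM (0.25). RSAD2 lay at -2.04 in the pair and did not pass the test with DMSO (0.046, adjusted p 0.70). Some of the lower genes, among them IFIH1, SP100 and SP110, lie on the distal long arm of chromosome 2 described below, and without that region the list's median was -0.577 with 20 of 59 lower.

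Antigen presentation differed from the interferon list. HLA-B, a heavy chain of MHC class I, stood at 192.1 and 678.1 CPM (1.82), and B2M, the shared light chain, at 867.3 and 1223 CPM (0.50). With DMSO, HLA-B stood at 362.3 and 360.2 CPM in Cal27 and at 374.5 and 370.1 CPM in the labelled knockout, and neither HLA-B nor B2M passed the test (edgeR adjusted p 0.37 and 0.89). Of 21 class I pathway genes kept, 20 were above 0 in the pair and 1 was at least 2-fold higher (4.51% over all genes kept), with a median of 0.456. With DMSO 4 of the 21 rose and 5 fell, with a median of -0.020. Over all tested genes kept, 18.7% rose and 20.2% fell, so the 2-fold count and both DMSO counts were near the shares over all genes. MHC class II genes differed in direction between the sets. CD74, the invariant chain, stood at 199.9 and 622.5 CPM untreated (1.64), while with DMSO it fell by 0.29. HLA-DRA stood at 36.4 and 58.8 CPM untreated (0.69), while with DMSO it stood at 140.2 and 140.6 CPM in Cal27 and 46.7 and 46.9 CPM in the labelled knockout and fell by 1.59 (SE 0.047, adjusted p 6.2e-14). Of 8 class II genes kept, 6 were above 0 in the pair and 7 fell with DMSO, with a median of -1.238 against 0.299 in the pair. CIITA, the activator of these genes, stood at 27.6 and 35.2 CPM (0.35) and fell by 0.68 with DMSO. HLA genes are near-identical copies of one another, so their separate counts are uncertain.

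**Figure D3:**
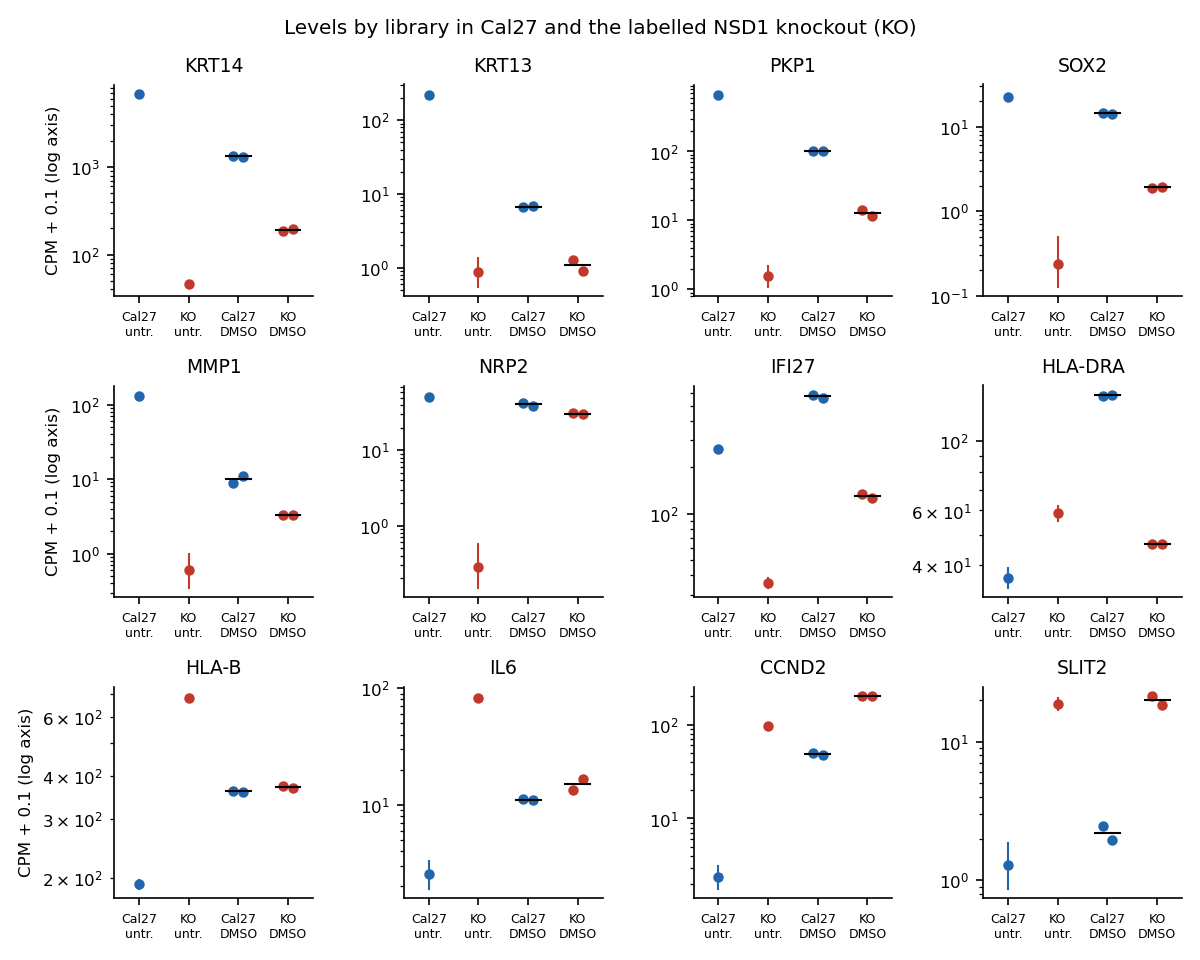
Levels of 12 genes as CPM plus 0.1 on log axes, in the 2 untreated libraries (untr., 1 each, bars are 95% counting intervals) and the 4 DMSO libraries (2 each, the black line is their mean); blue is Cal27 and red the labelled knockout (KO). KRT14 to MMP1 are lower in the labelled knockout in both sets, whereas NRP2 is near 0 only in the untreated labelled knockout and HLA-DRA is higher in it untreated and lower with DMSO.

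Matrix proteases also held large differences. The collagenases MMP1 (128.7 and 0.499 CPM, -7.69) and MMP13 (190.3 and 4.99 CPM, -5.22) and the stromelysin MMP10 (66.3 and 0.227 CPM, -7.57) were lower, and they fell with DMSO by 1.64, 3.93 and 2.33. These 3 are neighbours in a cluster on chromosome 11, in which MMP7 lay at -0.09. TIMP3, an inhibitor of such proteases, stood at 8.95 and 0.182 CPM (-4.89) and fell with DMSO by 6.43. The sulfatase SULF2, which trims heparan sulfate, stood at 115.5 and 4.77 CPM (-4.56). On the higher side were ADAMTS6 (2.13) and TIMP2 (1.56), and MMP14, the membrane-bound activator of MMP2, lay at 0.88. Of 14 genes kept, 7 were lower and 3 higher, with a median of -1.25.

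Matrix and mesenchymal genes leaned the other way. Thrombospondin 1, THBS1, stood at 933.4 and 4218 CPM (2.18), and with DMSO at 1167 and 1161 CPM in Cal27 and 2216 and 2218 CPM in the labelled knockout, where it rose by 0.92. Fibronectin, FN1, stood at 41.0 and 278.4 CPM (2.76), N-cadherin, CDH2, at 14.1 and 57.2 CPM (2.01) and the urokinase receptor PLAUR at 23.0 and 66.6 CPM (1.53). COL6A2 (-1.72), TWIST1 (-1.22) and LTBP2 (-1.14) were lower, and LTBP2 rose with DMSO by 1.83. Of 26 genes kept from this list, 7 were higher and 3 lower, with a median of 0.483. The list also holds CDH1, an epithelial gene, which is 1 of the 7 higher. Targets of YAP and TEAD, which read mechanical tension, had 6 of 20 higher and none lower, with a median of 0.567. They were led by ANKRD1 (0.238 and 7.81 CPM, 4.46) and CCN1 (63.9 and 401.1 CPM, 2.65). With DMSO 13 of the 20 rose and 2 fell, where 18.7% of the tested genes kept rose and 20.2% fell.

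Signalling genes split within families. BMP7, a bone morphogenetic protein, stood at 55.8 CPM in Cal27 and at 0.045 CPM (1 count) in the labelled knockout, with an interval of the log2 ratio of counts from -15.569 to -7.783. It fell with DMSO from 12.6 ± 0.295 to 0.640 ± 0.0246 CPM (mean ± SD, n = 2), a log2 difference of -4.29 in the edgeR fit. ID1, a direct BMP target, stood at 96.4 and 11.98 CPM (-2.995) and SMAD6, the feedback inhibitor of BMP receptors, at 4.85 and 0.499 CPM (-2.999). The TGF-beta family ligands TGFB2 (29.3 and 124.5 CPM, 2.08) and INHBA (68.1 and 216.3 CPM, 1.66) were higher. Of 16 Notch genes kept, 6 were lower and none higher: HES2 (-3.29), NRARP (-2.17), NOTCH3 (-1.29), LFNG (-1.24), JAG1 (-1.12) and NOTCH1 (-1.03). Among WNT genes WNT9A (-3.46), WNT10A (-2.01), WNT3A (-1.97), WNT5A (-1.42) and FZD4 (-1.28) were lower, while FZD2 (1.09) and the receptor kinase ROR1 (1.48 and 18.7 CPM, 3.56) were higher. WNT10A lies on distal chromosome 2. Growth factor genes included FGFBP1, a carrier of fibroblast growth factors (256.1 and 28.5 CPM, -3.16), FGFR3 (-1.83) and FGFR4 (-1.90) on the lower side and the EGF-family ligand HBEGF (12.6 and 46.6 CPM, 1.88) on the higher side. MAPK-induced genes lay on both sides of 0 in the pair, with DUSP4 at 2.92, JUN at 1.45, EGR1 at -1.33 and DUSP6 at -1.40. The median of 22 kept was -0.054, and 0.05 with scaling by library size alone. With DMSO 19 of the 22 rose, DUSP6 among them (0.26), and 1 fell, JUNB, with a median of 0.431. Over all tested genes kept, 18.7% rose and 20.2% fell.

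Axon guidance genes, which also steer epithelial and vessel cells, reached far on both sides, with 7 of 28 higher and 6 lower. The secreted repellent SLIT2 stood at 1.19 and 18.7 CPM untreated (3.84), and at 2.35 and 1.86 CPM in Cal27 and 21.2 and 18.3 CPM in the labelled knockout with DMSO, where it rose by 3.21. The semaphorins SEMA7A (3.36), SEMA3D (2.68), SEMA3B (2.01) and SEMA3E (1.92) were higher. The semaphorin co-receptor NRP2 stood at 50.9 CPM in untreated Cal27 and at 0.182 CPM (4 counts) in the labelled knockout, while with DMSO it stood at 43.1 and 38.9 CPM and at 31.1 and 29.9 CPM. The untreated labelled knockout alone was near 0, which gave a difference of -7.39 against a fall by 0.44 with DMSO, and NRP2 lies on distal chromosome 2. EPHB3 (-4.89) and EFNB1 (-2.94), a receptor and a ligand of the ephrin system, were lower.

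Other named genes gave single large values. Cyclin D2, CCND2, stood at 2.28 and 97.1 CPM (5.33) and rose with DMSO by 2.04, whereas of 34 cell cycle genes kept it was the only one beyond 2-fold. MKI67, the proliferation marker, stood at 709.2 and 699.8 CPM (-0.02), and CDKN1A at 35.1 and 39.5 CPM (0.17). CDH5 (VE-cadherin) stood at 2.86 and 86.1 CPM (4.85) and the endothelin receptor EDNRB at 0.190 and 7.85 CPM (4.67). MUC6 had 0 counts in Cal27 and 12.03 CPM in the labelled knockout, at least 84.3-fold higher, and was at 0 in all 4 DMSO libraries. BIVM-ERCC5 is a read-through gene and KLRC2 has close copies, so their values (at least 54.7-fold higher, and 5.09) are uncertain. PTPRZ1 (84.6 and 0.272 CPM, -7.74), the chloride channel ANO1 (198.6 and 1.68 CPM, -6.78) and the integrin ITGA4 (13.3 CPM and no count, at least 97.8-fold lower) were among the lowest, as was SLURP2, at least 157.2-fold lower. ITGA4 lies on distal chromosome 2, and SLURP2 stood at 21.4 CPM in untreated Cal27 but at 0.703 CPM with DMSO (mean of 2). Of 28 genes kept from a list of glycolysis and hypoxia response, 3 were lower, 2 higher and 23 within 2-fold, with a median of -0.137. The carbonic anhydrase CA12 (-6.42) and NDRG1 (230.1 and 26.6 CPM, -3.11) were among the lower and CA9 (1.16) among the higher. The stress sensor SESN3 lay at -5.59. Of 23 NRF2 targets and related genes kept, 18 lay within 2-fold and 5 were lower, with a median of -0.075, and 0.03 with scaling by library size alone. The lower genes were AKR1C1 (-2.49), AKR1C2 (-3.78), ALDH3A1 (-3.28) and GPX2 (-3.18), enzymes of xenobiotic and peroxide handling, and NFE2L2 (168.3 and 65.1 CPM, -1.37), which encodes NRF2 and lies on distal chromosome 2. AKR1C1 and AKR1C2 are close copies, so their separate counts are uncertain.

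Of the writers and erasers of the histone marks in the study's design, few differed. NSD2 (-0.05), NSD3 (-0.20) and SETD2 (0.26) and the PRC2 subunits EZH2 (54.6 and 54.8 CPM, 0.007), SUZ12 (0.26) and EED (-0.06) lay within 2-fold, as did the H3K27 demethylases KDM6A (-0.08) and KDM6B (-0.13). With scaling by library size alone NSD2 (0.055), EED (0.049), KDM6A (0.026) and MKI67 (0.085) changed sign. All 15 PRC2 and H3K27 genes and all 12 DNA methylation genes kept lay within 2-fold, and of 13 NSD family and H3K36 genes only KDM4D (5.04 and 2.09 CPM, -1.22) did not. Over all genes kept, 9891 of 11111 lay within 2-fold, so these counts were near the share over all genes and do not set these lists apart. Of 13 HOX genes, HOXC10 (-1.48), HOXD9 (-1.21) and HOXD10 (-1.19) were lower, the last 2 on distal chromosome 2. Ribosomal protein genes had a median of -0.195, with 77 of 78 below 0, and RPL37A, on distal chromosome 2, was the only one beyond 2-fold (-1.16). The lipid synthesis genes SCD (2783 and 1314 CPM, -1.08), PMVK (-1.08) and SREBF1 (-0.99) were the lowest of 31, whose median was -0.245.

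Markers of other cell types were looked up beside these groups. CD3E, CD3D, MS4A1 and TYROBP had 0 counts in both untreated libraries and PTPRC, the common leukocyte marker, had 0 and 4. Of 10 immune markers, 3 were kept: LAPTM5 (7.33 and 61.5 CPM), CD68 (56.8 and 126 CPM) and CD14 (9.33 and 9.90 CPM). The summed immune list ranged from 74.2 to 83.1 CPM in the 3 Cal27 libraries and from 177.4 to 201.5 CPM in the 3 untreated and DMSO libraries of the labelled knockout. Of 7 endothelial markers, CDH5 and EGFL7 were kept, KDR, TEK and CLDN5 had 0 counts in both, and the summed list was 26.1 and 96.6 CPM untreated and 25.4 to 30.8 CPM with DMSO. The 2 genes kept went opposite ways, CDH5 higher (4.85) and EGFL7 lower (-1.02). CDH5 alone held 86.1 of the 96.6 CPM in the untreated labelled knockout. The summed fibroblast list was 26.7 and 27.01 CPM untreated, with THY1 at 0, and 19.1 to 20.7 CPM in Cal27 and 7.53 to 10.04 CPM in the labelled knockout with DMSO. Of its 2 genes kept of 9, LUM had 101 counts and 1 count, COL1A1 lay at 0.46, and both fell with DMSO. The summed melanocyte list was 3.24 and 6.36 CPM, with 1 of 7 kept and TYR and DCT at 0. The part of these markers in the other differences was not tested. In bulk RNA, fewer cells of a type and less RNA per cell cannot be told apart.

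The DMSO libraries share no library with the untreated pair. Over all 13241 genes tested with DMSO, 2169 rose (16.4%) and 2580 fell (19.5%), and over the 11078 tested genes of the pair 18.7% rose and 20.2% fell. With scaling by library size alone 2978 rose and 2088 fell. Of the 499 tested genes at least 2-fold higher in the pair, 294 rose with DMSO (58.9%) and 32 fell (6.41%). Of the 705 tested genes at least 2-fold lower, 482 fell (68.4%) and 23 rose (3.26%), and of 265 at least 4-fold lower, 236 fell (89.1%). Differences were smaller with DMSO: the median of the higher genes was 1.484 in the pair and 0.447 with DMSO, and that of the lower genes -1.64 and -0.701. These genes were chosen for a large value in the pair, which by itself favours a smaller value in other libraries. Read from the other side, of 102 genes of the pair that rose at least 2-fold with DMSO, 98 were higher in the pair, 72 of them at least 2-fold. Of 379 that fell at least 2-fold, 340 were lower, 270 of them at least 2-fold. Across the 11078 genes, which are not independent replicates, the differences in the 2 sets had a Pearson correlation of 0.627 and a Spearman correlation of 0.454, and 64.7% had the same sign.

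**Figure D4:**
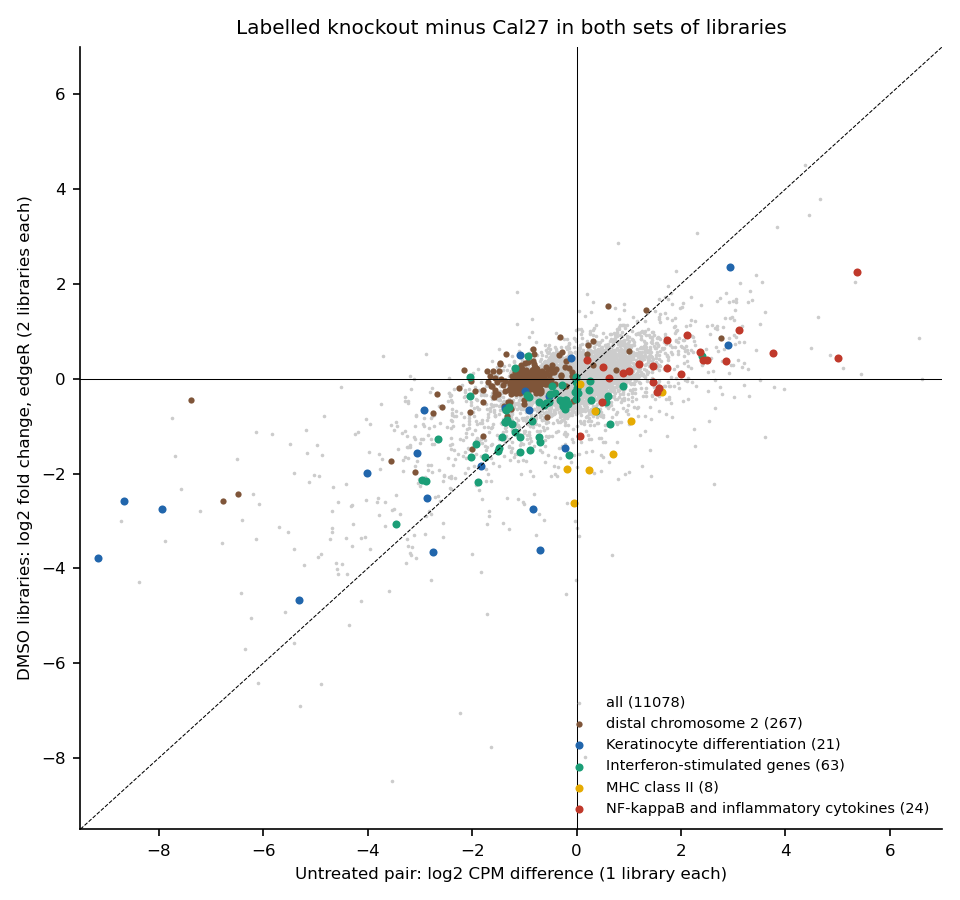
Log2 difference, labelled knockout minus Cal27, in the untreated pair (horizontal axis, 1 library each) and with DMSO (vertical axis, edgeR fit, 2 libraries each) for 11078 genes; coloured points are genes of 4 lists and of distal chromosome 2, and the dashed line marks equal differences. Keratinocyte and interferon genes lie mostly below 0 on both axes, NF-kappaB genes lie to the right near 0 on the vertical axis, and distal chromosome 2 genes form a column left of 0 with a median near 0 on the vertical axis.

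Whether the difference itself differed between the sets was tested as an interaction in edgeR over 8 libraries in 5 groups. Each untreated group is 1 library and was assumed there to vary like the DMSO and EPZ-6438 replicates, whose biological coefficient of variation was 2.6% and whose spread may be technical. The calls therefore compare single libraries, carry no replicate check of the untreated pair and may be too many. No result on a list rests on them. The test did serve to choose 16 of the named genes, whose log2 sizes are given further below. Of 13999 genes tested, the difference was called higher in the untreated set for 2038 (14.6%) and lower for 2136 (15.3%), while DESeq2 called 1056 and 1213, and edgeR with scaling by library size alone 2558 and 1800. The 2 sets also differed in depth, and 26 genes, among them NOTCH1, COL17A1, RPL26 and IGF1R, were at least 10 times higher in every untreated library than in every DMSO or EPZ-6438 library, with none the other way. Single DMSO values of those genes are not given here, though the counts include them. Treatment and set cannot be told apart. Genes that passed 2-fold in the pair and were called the opposite way with DMSO numbered 55, which are described and not tested further. Among the 32 that were higher in the pair and fell with DMSO were SAA1, SAA2 (15.99 and 100.8 CPM untreated), CFB, the lipid receptor OLR1 (44.9 and 218.2 CPM), CD74, CCL2, BIRC3 and the prostaglandin synthase PTGES (42.4 and 104.6 CPM). Among the 23 that were lower and rose were the water channel AQP3 (359.4 and 27.6 CPM untreated, 54.3 ± 1.24 and 76.0 ± 2.93 CPM with DMSO, mean ± SD, n = 2), IRS1 (213.3 and 83.6 CPM), the growth factor NRG1 (174.1 and 72.5 CPM) and EMP1 (140.4 and 66.3 CPM). SAA2, OLR1, PTGES, IRS1, NRG1 and EMP1 were chosen after their values were seen. IRS1, like some others of the 23, lies on distal chromosome 2, where genes were lower as a block, as described below.

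Genes of distal chromosome 2 were lower as a block, a pattern chosen after the values were seen. Along the chromosome the values dropped between RBM43 and NMI, and from NMI to the last gene kept, D2HGDH (chr2:151270470-241768811, GRCh38.p14), 268 genes had a median difference of -0.942, with the middle 50% between -1.168 and -0.72. Of these, 258 were below 0 (96.3%) and 119 were at least 2-fold lower (44.4%), against 5.58% on the other chromosomes and 21 of 443 genes (4.74%) before the change point on chromosome 2. With DMSO the median of the same genes was -0.048, with 31 of 267 tested rising and 70 falling (26.2%). Over all tested genes kept, 18.7% rose and 20.2% fell. The median log2 ratio of untreated to DMSO level was -0.979 in the labelled knockout and -0.076 in Cal27, so the low values belonged to the untreated labelled knockout. Cut into stretches of 10 Mb, the genome gave 289 with at least 8 genes, and the 10 with a median at or below -0.5 were the 10 of this region, while none lay at or above 0.5. With DMSO none lay beyond either value. XRCC5, a DNA repair subunit named after its value was seen, stood at 478.9 and 231.9 CPM untreated and at 526.1 and 504.7 CPM with DMSO (means of 2). FN1 (2.76) and SGPP2 (1.01) were among the 3 genes of the region at least 2-fold higher, and both rose with DMSO. DNA copy number was not measured in these data, and the cause was not tested. Without these genes, 498 were at least 2-fold higher and 600 lower.

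**Figure D5:**
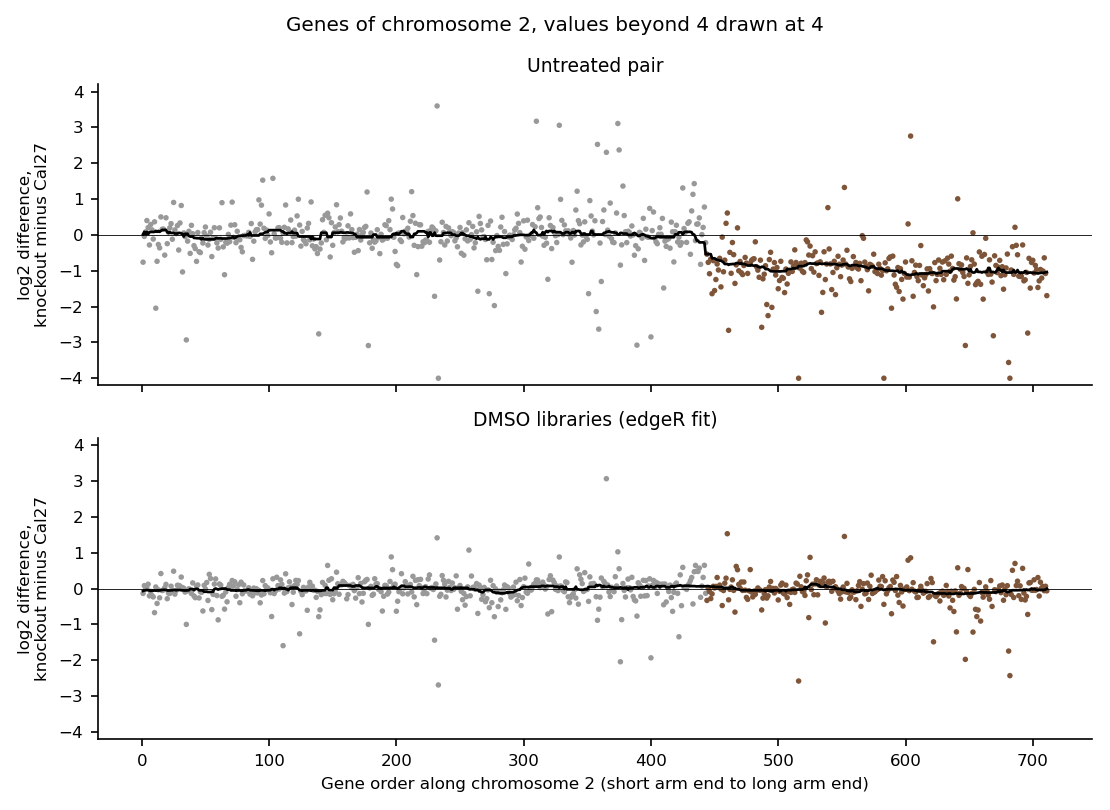
Log2 difference, labelled knockout minus Cal27, for the 711 genes of chromosome 2 in gene order, in the untreated pair (top) and with DMSO (bottom, edgeR fit); brown points are the 268 genes after the change point, the black line is a running median of 31 genes, and values beyond 4 are drawn at 4. The running median drops from near 0 to about the region's median of -0.942 in the untreated pair and stays near 0 with DMSO.

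The other untreated lines, which share the Cal27 library as their control, differed from it on several of the same genes and are given side by side only. KRT14 stood at 139 CPM in SKN3 and 1288 CPM in BICR78, beside 6783 CPM in Cal27 and 45.6 CPM in the labelled knockout. SOX2 stood at 97.1 and 4.21 CPM in SKN3 and BICR78, KRT13 at 692.9 and 931.6 CPM, IFI27 at 13.4 and 27.8 CPM, and IL6 at 0.053 and 3.33 CPM. KRT13 was thus above its Cal27 level in both lines, and IFI27 below it in both.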

How the data were processed

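RNA was extracted with TRIzol and depleted of ribosomal RNA, per the labels' protocols. The authors deposited a table of whole-number counts per gene. Per the submitters' processing notes, the tools included featureCounts 1.6.1, the aligner HISAT2 2.1.0, Picard 2.23.1 and CASAVA 1.7, with the build hg38. How they were set was not stated. Whether strand was used in counting is not stated, so a gene and its antisense partner cannot be told apart. The 7 CUT&Tag samples were not analysed here.

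Counts of 10 RNA libraries were scaled together by edgeR's TMM (edgeR 4.0.16, limma 3.58.1, R 4.3.3), and log2 CPM used a prior count of 2. Totals ran from 11.75 to 21.74 counts in units of 1e6. Counting intervals (95%, exact Clopper-Pearson for ratios of counts, exact Poisson for levels) cover counting error only, and the floor was 3 counts. The DMSO comparison was fitted with the EPZ-6438 libraries, which share 1 estimate of the spread with it (3 residual degrees of freedom), and the difference between the sets was fitted over 8 libraries in 5 groups, both by edgeR's quasi-likelihood test with Benjamini-Hochberg adjustment over all genes tested. DESeq2 1.42.0 was an alternative, beside other scalings, filters and omitted libraries. The scripts were tested on simulated data. Gene symbols were matched to RefSeq (GRCh38.p14): 26967 by symbol, 479 by an older symbol and 7050 not.

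The members, gene lists and tests were chosen with earlier results of these data known. Named genes are NSD1, the 15 largest differences each way among protein-coding genes and the 5 largest among other classes, up to 5 of each list, 21 fixed genes, the 8 with the lowest p each way for the difference between the sets, and 5 on each side of each threshold. Genes named beyond that, such as cluster neighbours, within-family contrasts, list members beyond the first 5 and genes opposite between the sets, were chosen after their values were seen.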

Additional observations from a re-analysis of the deposited data

Results flagged for a closer look

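An edgeR interaction between the labelled knockout and the set, untreated or DMSO, was called for 2038 genes on the higher side and 2136 on the lower side. Each untreated group in it is 1 library, whose spread was taken from the replicates of other groups, so these calls compare single libraries and may be too many. For 32 genes that were at least 2-fold higher in the pair and for 23 that were at least 2-fold lower, the DMSO comparison was called in the opposite direction, a difference that the choice of these genes already holds. On distal chromosome 2 the difference between the sets was called lower for 241 of 268 genes, where 15.3% of all genes tested were called lower. That region was placed by the low values of the same untreated pair, which enter this difference. The choice of the region therefore already favours lower calls, and no conclusion is drawn from their number. Treatment and set cannot be told apart, and the cause was not tested.

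The genes with the lowest p for this difference, which were picked by it, are given with its log2 size. On the higher side were C15orf48 (5.80), SAA1 (3.34), CFB (3.10), C3 (2.44), KRT80 (2.19), LCN2 (2.13), IL1A (2.08) and CD74 (1.92). On the lower side were KRT14 (-4.42), AQP3 (-4.18), the gap junction protein GJB2 (-3.10), FGFBP1 (-2.95), KRT6A (-2.94), KRT15 (-2.38), ITGA6 (-2.05) and DSP (-1.96). Of these, ITGA6 lies on distal chromosome 2.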

How the results depend on the processing

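With 1 untreated library per group, counts of genes in the pair follow the count minimum: at 500 counts 259 were higher and 345 lower. Requiring the counting interval to lie wholly past 2-fold, an alternative chosen after seeing the data, left 364 and 542. Tested against a log2 fold of 0.5, the DMSO comparison gave 248 rises and 618 falls, of which 125 and 307 were in genes higher and lower in the pair. DESeq2 gave 1056 and 1213 genes for the difference between the sets, and 1512 rises and 1736 falls with DMSO. The other alternatives kept each count within 1.5 times. Leaving out 1 library at a time gave 1571 to 2262 rises and 1892 to 2571 falls with DMSO, 257 to 290 and 428 to 480 among genes higher and lower in the pair, and 1685 to 1811 higher and 1768 to 1908 lower for the difference between the sets. With the replicate number as a block, 2054 rose and 2458 fell, 288 and 468 of them in genes higher and lower in the pair. The numbers do not pair the libraries, as deviations of same-numbered libraries correlated at 0.014, -0.044 and 0.003. With library size alone, 65 of 229 named differences moved beyond their counting interval and 4 changed direction, and the medians of the MAPK, HOX, cell cycle, NRF2 and growth factor lists changed sign. Depth limits the genes at or near 0 in 1 library, for which only bounds or intervals hold.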

Other observations

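The short arm of chromosome 8 (below 45 Mb) held 128 of the genes described, with a median difference of -0.329 in the untreated pair and 0.106 with DMSO. The median log2 ratio of untreated to DMSO level there was -0.406 in Cal27 and -0.874 in the labelled knockout. The region was chosen after the values were seen.

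Within the clade B serpin cluster on chromosome 18, also chosen after the values were seen, 3 of 7 genes were at least 2-fold lower. SERPINB13 (-3.06), SERPINB3 (-1.84) and SERPINB5 (-1.57), protease inhibitors of squamous epithelium, were lower, while SERPINB8 lay at 0.55 and SERPINB7 at 0.18.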
